A study of Drosophila melanogaster with 4 samples.

Results

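The glutathione S-transferase genes of Drosophila melanogaster were followed in larvae with an extra copy of the left arm of chromosome 2. The family was taken as every gene whose name in the deposited tables begins with Gst and a capital letter, the letter of its class. This gave 21 of 14161 genes, with 24 of 22738 transcript models: 10 delta genes (GstD1 to GstD10) on arm 3R, 10 epsilon genes (GstE1 to GstE10) on arm 2R, and the sigma gene GstS1 on 2R. None of them lies on 2L, so every comparison below concerns genes whose own arm was not triplicated.

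Normal larvae carried the usual complement, and the series' design text calls them Cantons. Trisomy 2L larvae carried 2L in 3 copies instead of 2, and their strain and the way the trisomy was made are not given in the labels. Females and males of each karyotype were collected at the third instar from stocks kept at 25 degrees, and total RNA of each group was sequenced. The labels name 4 biological replicates in each of the 4 groups. The values are the authors' mean of each group in CPM, a read count scaled so that each column has the same total, so each gene has 1 value per group and no difference below has a test, an error or a p-value. Whole larvae or parts of them are not told apart in the labels, and in bulk RNA fewer cells of a type and less RNA per cell cannot be told apart. Strain and exact stage cannot be told apart from karyotype.

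Glutathione S-transferases join the thiol of glutathione to electrophilic compounds, which makes toxins and products of lipid peroxidation soluble and ready for export. In insects the delta and epsilon classes have expanded into clusters of neighbouring genes and are best known for the breakdown of insecticides and plant toxins, with the midgut, fat body and Malpighian tubules as main sites. The sigma, theta, omega and zeta classes are shared with other animals.

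Each change is the log2 of CPM + 1 in trisomic larvae less that in normal larvae of one sex, a scale that understates the change of low genes. A change of at least 1.5-fold on this scale was counted as higher or lower. CPM are shares of a total, so a change is relative to all other RNA of the group. Over 4069 genes of the other large autosomal arms (2R, 3L, 3R) the female median was -0.20 and the male median -0.31. No value in the tables is 0. Instead, 373 to 645 transcript models of a column share 1 repeated value, 2.22 CPM in normal females, 0.845 CPM in normal males, 2.81 CPM in trisomic females and 0.389 CPM in trisomic males. Values at or below the repeated value of their column cannot be read as a level, and 9 of the 21 members had such a value in at least 1 group.

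As a check of the labels, the share of CPM from 2L was 20.9% and 21.4% in normal females and normal males and 27.5% and 28.1% in the trisomic groups, and the male-limited RNA roX1 stood at 506 and 285 CPM in normal and trisomic males against 13.1 and 22.4 CPM in females.

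The family divided by level. The more abundant members lay within 1.5-fold of normal in trisomic larvae of both sexes, except GstD9, which was lower. Among the sparse delta and epsilon genes, GstD7, GstD8, GstE5 and GstE7 had the greatest differences, all upward in both sexes and all from normal female values below the repeated value. Trisomic females had 7 of the 21 genes at least 1.5-fold higher and 1 lower, and trisomic males had 10 higher and 1 lower. The corresponding shares of all 14161 genes were 14.1% higher and 14.3% lower for females, and 12.5% higher and 26.4% lower for males. The same 7 members were higher in both sexes (GstD2, GstD7, GstD8, GstD10, GstE5, GstE6 and GstE7), whereas 8.54% of all genes were higher in both. The family median was 0.35 in females and 0.48 in males, beside 0.01 and -0.18 over all genes. For the 12 members above the repeated value in every group, the medians were 0.03 in females and 0.04 in males. Of those 12, 3 were higher and 1 lower in females, and 4 were higher and 1 lower in males. The share of all genes under that filter was not computed. GstD9 was the only member at least 1.5-fold lower, and it was so in both sexes, as were 10.3% of all genes. With changes taken from the autosomal median instead, 9 members were higher and 0 lower in females and 11 higher and 0 lower in males, where 19.97% of all genes were higher and 6.87% lower in females, and 21.5% higher and 13.8% lower in males. That median came from genes reaching 10 CPM on average, whereas most members lie under it. The members gained in females were GstD4 and GstD6, whose changes were 0.01 and 0 with values under 2.81 CPM raised to it.

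**Figure D1:**
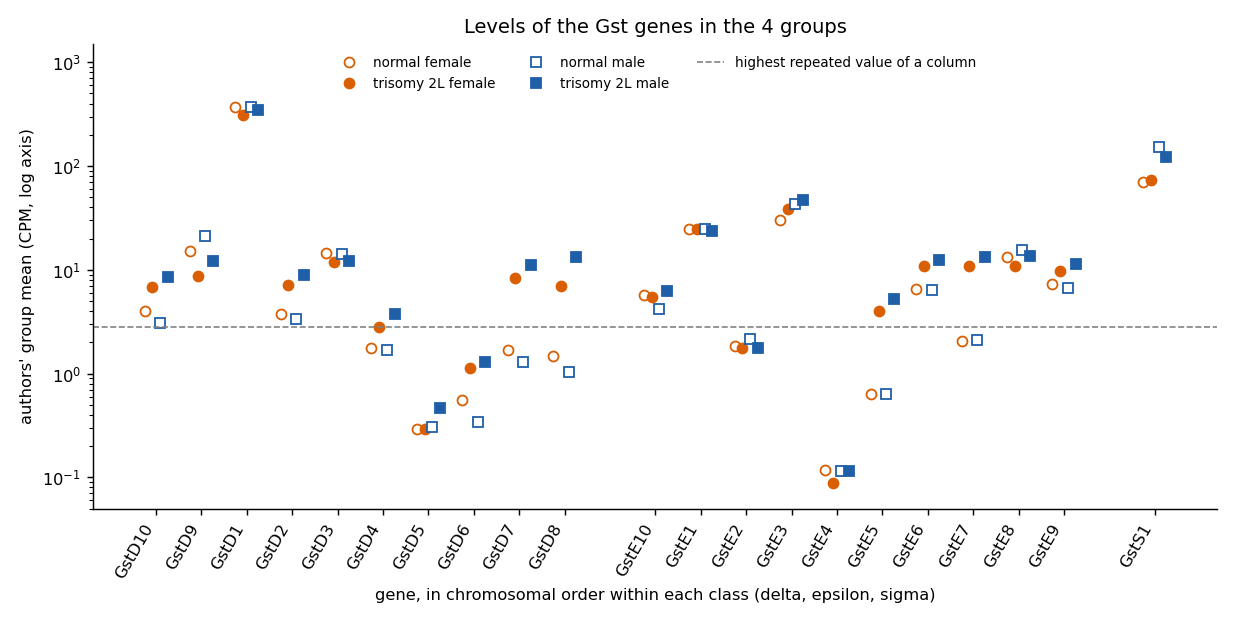
Authors' group mean of each Gst gene in CPM on a log axis, in chromosomal order within the delta, epsilon and sigma classes; open symbols are normal and filled symbols trisomy 2L larvae, circles females and squares males, and the dashed line is the highest repeated value of a column, 2.81 CPM. GstD1 and GstS1 stand above the rest in every group, and the filled symbols of GstD7, GstD8, GstE5 and GstE7 lie well above the open ones.

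These counts rest on genes of low level. Averaged over the groups, only 7 members reached 10 CPM (GstD1, GstD3, GstD9, GstE1, GstE3, GstE8 and GstS1), and all 14 others lay under it. Among the 7, none was at least 1.5-fold higher and 1 was lower in either sex, where 15.3% of 6308 genes of that level were higher and 18.3% lower in females, and 17% higher and 29.5% lower in males. Their median was -0.25 in females and -0.17 in males, beside -0.06 and -0.18 over all genes of that level. Taken from the autosomal median, GstD1 (-0.05 and 0.22), GstD3 (-0.06 and 0.11), GstE1 (0.20 and 0.26) and GstE8 (-0.08 and 0.14) turned above 0 in males. GstD9 (-0.54 and -0.45) came within 1.5-fold. Among the 14 sparse members 7 were higher and 0 lower in females, and 10 were higher and 0 lower in males. Of 7853 genes under 10 CPM, 13.2% were higher and 11% lower in females, and 8.84% were higher and 23.9% lower in males. When every value under 2.81 CPM was set to 2.81 CPM, 6 of the 21 members were at least 1.5-fold higher in females and 8 in males. The share of all genes at that setting was not computed, and the shares above do not apply to it.

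The most abundant member was GstD1, whose enzyme breaks down DDT. It stood at 370.5 CPM in normal females, 312 CPM in trisomic females, 367 CPM in normal males and 345 CPM in trisomic males. Both trisomic values lay below both normal ones, by -0.25 in females and -0.09 in males, which is about as far as the autosomal median in females and less far than it in males. GstD1 supplied 64.2% of the summed CPM of the family in normal females, 56.0% in trisomic females, 54.6% in normal males and 51.1% in trisomic males. Per kilobase of exon, on release 6 gene models, its mean over the groups was 413 CPM, against 59.5 CPM for GstS1, 52.9 CPM for GstE3 and 29.6 CPM for GstE1. Its 2 transcript models gave nearly equal values, 378 and 363 CPM in normal females and 318 and 305 CPM in trisomic females.

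In the delta cluster GstD10, GstD9 and GstD1 lie side by side on one strand, and GstD2 to GstD8 follow in order on the other strand, in the release 6 annotation. GstD9 had 15.3 CPM in normal females, 8.78 CPM in trisomic females, 21.3 CPM in normal males and 12.2 CPM in trisomic males. It was lower in trisomic larvae of both sexes (-0.74 and -0.76), while its neighbour on one side, GstD1, differed little and its neighbour on the other side, GstD10, was higher. GstD10 had 4.02 CPM in normal females and 6.86 CPM in trisomic females, a change of 0.65, and 3.09 and 8.44 CPM in males, a change of 1.21.

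On the other strand GstD2 had 3.78 CPM in normal females and 7.10 CPM in trisomic females (0.76), and 3.34 and 8.88 CPM in males (1.19). GstD3, next to it, was among the more abundant members and lay lower, at 14.4 and 11.9 CPM in females (-0.26) and 14.2 and 12.2 CPM in males (-0.20). Neighbouring genes of the cluster thus lay on opposite sides of 0 as deposited.

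GstD4 was at 1.75 CPM in normal females and 2.84 CPM in trisomic females, a change of 0.48 that starts below the repeated value. In males it was at 1.69 and 3.77 CPM, a change of 0.82 that was 0.32 when values under 2.81 CPM were set to that value. GstD5 and GstD6 were barely measured: GstD5 lay between 0.291 and 0.464 CPM in the 4 groups, and GstD6 had 0.552 and 1.14 CPM in females and 0.340 and 1.28 CPM in males. Both lay under 2.81 CPM in every group. GstD6 is among the 10 members counted as higher in males, by 0.77, and this change was 0 with values under 2.81 CPM raised to it.

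The last pair of the cluster showed the largest differences. GstD7 had 1.67 CPM in normal females and 8.32 CPM after trisomy (1.80), and 1.29 and 11.1 CPM in males (2.40). GstD8 had 1.49 and 7.06 CPM in females (1.69), and 1.05 and 13.3 CPM in males, the largest change of any member (2.80). The normal female values of both lay below the repeated value of 2.22 CPM, and the size of these changes depends on that. With values under 2.81 CPM raised to it, GstD7 was still higher by 1.29 in females and 1.67 in males, and GstD8 by 1.08 and 1.91. The delta class as a whole, of which GstD1 is the greater part, summed to 414 CPM in normal females, 366 CPM in trisomic females, 414 CPM in normal males and 416 CPM in trisomic males.

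In the epsilon cluster GstE10 lies first and on the opposite strand, and GstE1 to GstE9 follow in order. GstE1 had 24.9 CPM in normal females, 24.96 CPM with trisomy, and 24.7 and 23.8 CPM in males. Its 4 values were the closest together of all members above 10 CPM. GstE3 had 29.996 and 38.9 CPM in females (0.36) and 43.4 and 47.5 CPM in males (0.13). GstE10 had 5.73 and 5.52 CPM in females (-0.046) and 4.23 and 6.30 CPM in males (0.48), or 0.79 in males from the autosomal median, and it overlaps GstE1 in the annotation, so the values of this pair are uncertain where strand was not used in counting. GstE2 lay between 1.76 and 2.13 CPM in the 4 groups, and GstE4 between 0.0874 and 0.117 CPM, below the repeated value in every group. GstE4 cannot be read as a level difference, and neither can GstE2 in females. The male values of GstE2 lay above the repeated values of their columns, with a change of -0.18.

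The genes at least 1.5-fold higher in both sexes, GstE5, GstE6 and GstE7, stood next to each other in the cluster. GstE5 had 0.640 CPM in normal females, 4.01 CPM in trisomic females, 0.631 CPM in normal males and 5.27 CPM in trisomic males, with changes of 1.61 and 1.94. Its normal values lie below the repeated value in both sexes, and with values under 2.81 CPM raised the changes were 0.39 and 0.72. GstE6 had 6.56 and 10.8 CPM in females (0.64), and 6.46 and 12.5 CPM in males (0.85), all above the repeated values. GstE7 had 2.04 and 10.8 CPM in females (1.96, or 1.63 with low values raised), and 2.11 and 13.2 CPM in males (2.19, or 1.89).

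Beyond these, GstE8 was lower by a small amount, with 13.3 and 10.8 CPM in females (-0.28) and 15.5 and 13.7 CPM in males (-0.17). GstE9, at the end of the cluster, had 7.35 and 9.64 CPM in females (0.35) and 6.71 and 11.3 CPM in males (0.67). It overlaps imd, a gene of the immune response, on the other strand, so its values are uncertain too. The epsilon class as a whole summed to 92.5 CPM in normal females, 117 CPM in trisomic females, 106 CPM in normal males and 135 CPM in trisomic males. Related neighbours may also share reads in both clusters, which was not examined, so the split among single genes is uncertain.

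**Figure D2:**
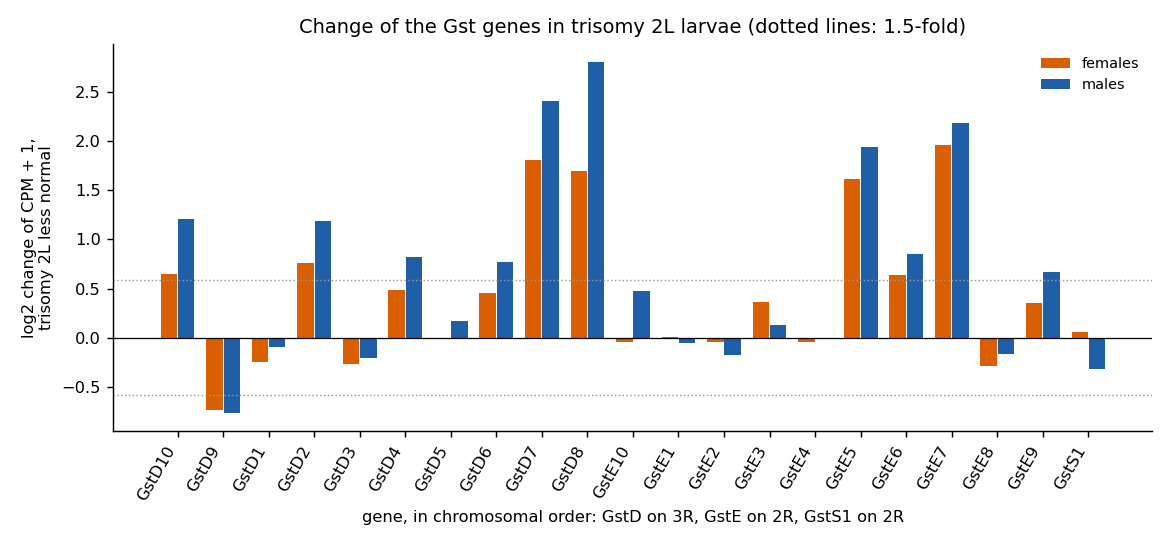
Log2 change of CPM + 1, trisomy 2L less normal larvae, for each Gst gene in chromosomal order, in females (orange) and males (blue), with dotted lines at 1.5-fold. GstD7, GstD8, GstE5 and GstE7 exceed 1.6 in both sexes, and GstD9 alone lies below the lower line.

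GstS1, which in flies is abundant in indirect flight muscle and conjugates the lipid peroxidation product 4-hydroxynonenal, differed more between the sexes than between karyotypes. It had 70.5 CPM in normal females and 73.7 CPM in trisomic females (0.06), and 153 and 123 CPM in males (-0.32). Male values were 2.17 times the female value in normal larvae and 1.66 times in trisomic larvae. The 3 transcript models ran in parallel, from 67.4 to 76.7 CPM in normal females and from 146 to 165 CPM in normal males.

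The sexes were then compared within each karyotype. GstS1 was the only member at least 1.5-fold higher in normal males than in normal females, and none was lower, whereas 18.8% of all genes were higher and 9.49% lower in normal males. Among genes reaching 10 CPM on average these shares were 14.3% and 3.68%, and in trisomic males 10.9% and 2.06%, against 1 of 7 members higher (GstS1) and 0 lower in either karyotype. Of the 21 members 7 lay above 0 and 14 below in normal larvae, with a median of -0.01, beside 58.8% of all genes above 0 and a median of 0.06. In trisomic larvae 20 lay above 0 and 1 below, with a median of 0.26, beside 60.7% of all genes above 0 and a median of 0.06. GstS1 and GstD8 were at least 1.5-fold higher in trisomic males, where 14.9% of all genes were higher and 9.7% lower. The change with trisomy was greater in males than in females for 16 of 21 members. These were 13 of the 14 sparse members and 3 of the 7 reaching 10 CPM. All genes together had the lower median in males, and the share of all genes with the greater change in males was not computed. GstD7 and GstD8 were the members whose male and female changes lay at least 1.5-fold apart, by 0.60 and 1.11, and 22.7% of all genes did so. Many members lie near the repeated values, which differ between the columns, and the part of these values in the sex comparison was not tested.

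**Figure D3:**
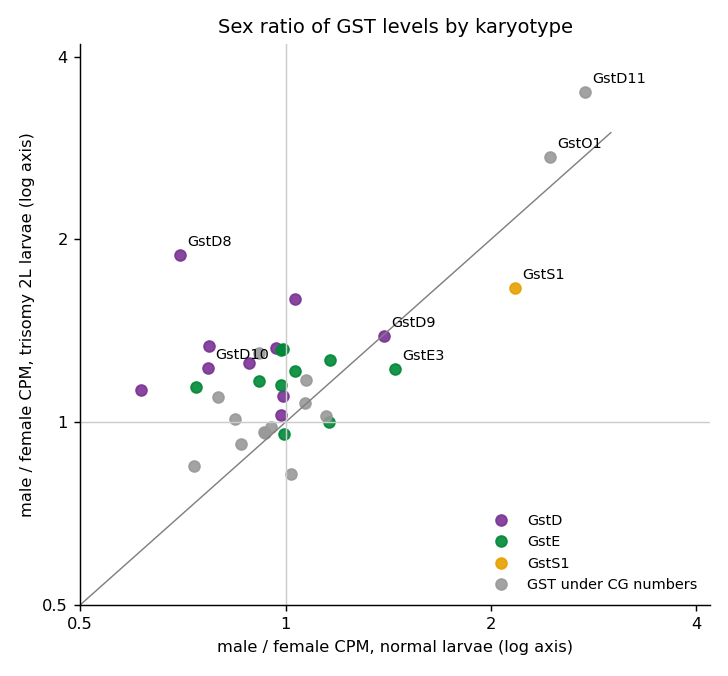
Ratio of male to female CPM for each glutathione S-transferase gene in normal larvae (horizontal, log axis) and trisomy 2L larvae (vertical, log axis), with a diagonal of equal ratios; purple points are GstD, green GstE, the yellow point GstS1, and grey points genes listed under CG numbers. Most GstD and GstE points lie above the diagonal, GstD8 farthest (0.70 and 1.88), and GstS1 lies below it (2.17 and 1.66). The normal female value of GstD8 lies below the repeated value of its column. GstD5, GstD6, GstE4 and GstD11 are among the points with most or all values at or below it, so their ratios cannot be read.

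A further 14 genes are glutathione S-transferases by their RefSeq symbol but are listed under CG numbers in the tables, so the naming rule leaves them out. They hold GstD11, GstE11 to GstE14, and the theta, omega and zeta genes, and none lies on 2L. On the deposited scale their changes ran downward, unlike those of the sparse members. The 7 members reaching 10 CPM also had medians below 0, but 3 of them lay above 0 in females and 1 in males. Of the 14 genes under CG numbers 0 were at least 1.5-fold higher in either sex, 4 were lower in females and 3 in males. All 14 lay below 0 in females and 13 in males, among them GstD11, which was below the repeated value in every group. Over all genes 14.3% were lower in females and 26.4% in males, and 50.8% and 36.9% lay above 0. Their female median was -0.42 and their male median -0.40. On average 11 of them reached 10 CPM, and those 11 had medians of -0.39 and -0.41, beside -0.06 and -0.18 over all genes of that level. Taken from the autosomal median, their medians were -0.22 in females and -0.09 in males, and 1 of the 14, GstO1, was lower in each sex. No test of the difference between these genes and the 21 members could be had.

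Among the omega genes GstO1 (listed as CG6662) differed most. It had 11.9 CPM in normal females and 4.34 CPM in trisomic females (-1.27), and 29.1 and 11.9 CPM in males (-1.23), with male values 2.44 times the female value in normal and 2.73 times in trisomic larvae. GstO3 (CG6776) had 134 and 104 CPM in females (-0.37) and 137 and 84.9 CPM in males (-0.68). Of the theta genes GstT2 (CG30005) was lower in both sexes (-0.66 and -0.61), and GstT4 (CG1681), on the X, had changes of -0.28 in females and 0.23 in males. The zeta gene GstZ1 (CG9362), whose class in other animals carries out a step of tyrosine breakdown, had changes of -0.65 and -0.56.

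Among the epsilon genes outside the cluster GstE12 (CG16936) was the most abundant, with 172 CPM in normal females and 119 CPM in trisomic females (-0.52) and 145 and 121 CPM in males (-0.26). GstE14 (CG4688), known as noppera-bo for its part in making ecdysone, stood at 1.79 and 0.782 CPM in females and 1.43 and 0.860 CPM in males. Its female values lay below the repeated values of their columns and cannot be read as a level, while its male values lay above them. GstE14 is among the 4 genes counted as lower in females (-0.65). With values under 2.81 CPM raised to that value 3 genes were lower, a setting without a computed share of all genes. In the annotation GstE12, GstE13, GstO2 and GstT2 overlap another gene, and their values are uncertain for that reason.

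**Figure D4:**
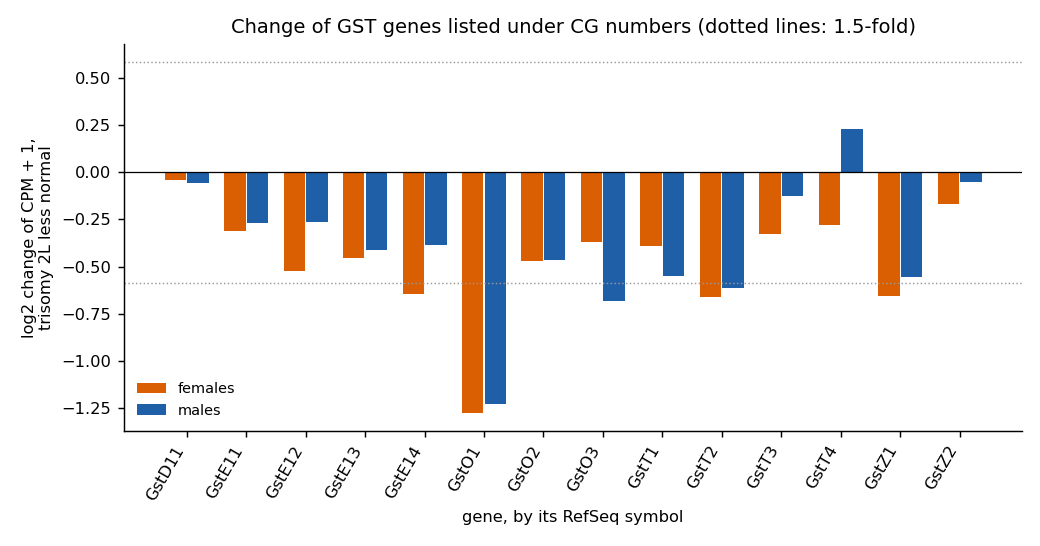
Log2 change of CPM + 1, trisomy 2L less normal larvae, for the 14 glutathione S-transferase genes listed under CG numbers, in females (orange) and males (blue), with dotted lines at 1.5-fold. Every bar lies below 0 except GstT4 in males, and GstO1 is lowest in both sexes.

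The genes that make, reduce and use glutathione were described from a list of 21, of which 20 were found. At least 1.5-fold higher were 5 genes in trisomic females and 4 in trisomic males, and lower were 1 and 2. Of all genes 14.1% and 12.5% were higher and 14.3% and 26.4% lower. The list median was 0.01 in females and 0.03 in males, beside 0.01 and -0.18 over all genes. Trx-2 and MRP lie on 2L and were thus present in 3 copies.

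For synthesis, Gclc, the catalytic subunit of glutamate-cysteine ligase, which sets the rate of glutathione synthesis, had 20.9 CPM in normal females and 41.2 CPM in trisomic females (0.95), and 16.7 and 52.5 CPM in males (1.59). Gclm, its modifier subunit, had changes of -0.18 and 0.36. Thioredoxin reductase, Trxr-1, which keeps glutathione reduced in flies, as they lack a glutathione reductase, had 33.5 and 72.9 CPM in females (1.10) and 33.6 and 85.9 CPM in males (1.33). Gclc and Trxr-1 lie on the X and were higher in both sexes. Ggt-1 and CG4829, described below, lie on the X as well. Mgstl, CG1492, CG33178 and CG33177, the last below the repeated value in every group, are X genes that stayed within 1.5-fold in both sexes. No gene of the list on 2R, 3L or 3R was at least 1.5-fold higher in either sex. Among those, se and CG15116 lay at or below the repeated value in every group. The shares of all genes by arm were not computed, so these counts cannot be read as a contrast of arms. The part of the arm in these differences was not tested. The glutathione synthetase gene Gss2 (CG32495), which has a near-identical copy, lay below the repeated value in every group and was not read.

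Of the genes that use or clear glutathione, Ggt-1 (CG6461), a gamma-glutamyl transpeptidase, was higher (0.73 and 0.84). MRP, an exporter of glutathione conjugates, had 62.2 and 114 CPM in females (0.87) and 66.4 and 125 CPM in males (0.90). The peroxidase gene PHGPx had changes of -0.51 and -0.60, of which the male one passed 1.5-fold. The transpeptidase-like gene CG4829 (0.60 and 0.07) passed it in females alone. The membrane-bound transferase gene Mgstl differed little (0.18 and 0.16), and gfzf, which joins a transferase domain to zinc fingers, likewise (-0.11 and -0.25).

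Among regulators, cnc encodes the transcription factor that activates many detoxification genes, Keap1 its inhibitor and maf-S its partner. The gene cnc had 129 and 113 CPM in females (-0.20) and 128 and 111 CPM in males (-0.21). Keap1 had 14.9 and 10.6 CPM in females (-0.45) and 14.3 and 10.4 CPM in males (-0.42). For maf-S the values were 34.9 and 15.2 CPM in females (-1.15) and 35.0 and 16.3 CPM in males (-1.06). The xenobiotic receptor gene Hr96 had changes of 0.037 and 0.30.

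**Figure D5:**
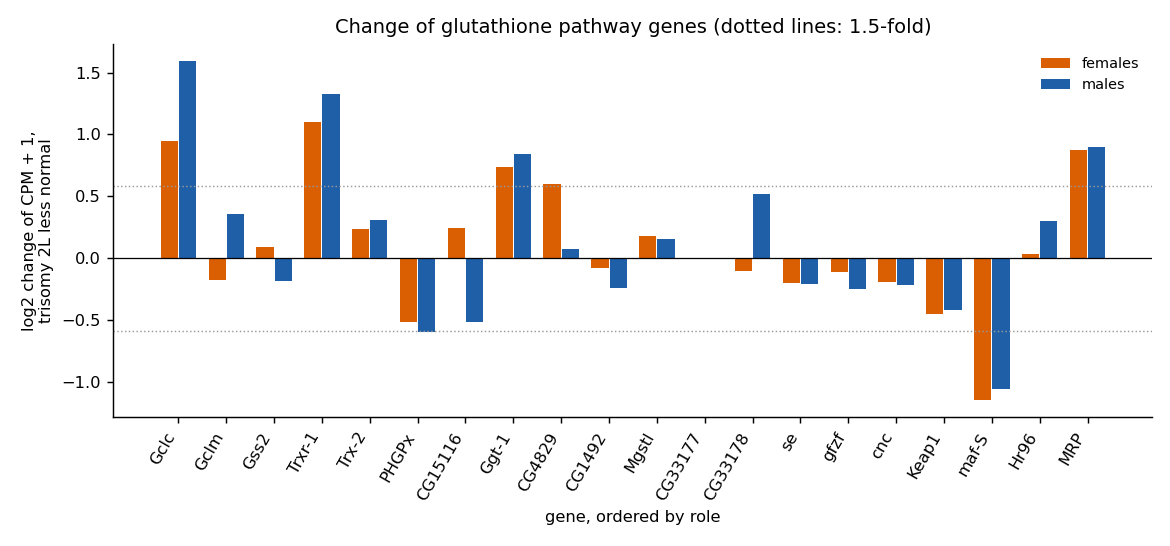
Log2 change of CPM + 1, trisomy 2L less normal larvae, for the 20 glutathione pathway genes found, ordered by role from synthesis to export, in females (orange) and males (blue), with dotted lines at 1.5-fold. Gclc, Trxr-1, Ggt-1 and MRP lie above the upper line in both sexes, and maf-S lies below the lower line in both.

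Markers of larval tissues also differed between karyotypes, in mixed directions for some tissues, and their part in the Gst differences was not tested. Of these markers Jon25Biii, Lsp1beta, Fbp2, Uro and Irk3 lie on 2L and were present in 3 copies. All markers but Irk3 reached 10 CPM on average. Of all genes of that level 15.3% were higher and 18.3% lower in females, and 17% higher and 29.5% lower in males. Of 4 midgut markers found, 2 were at least 1.5-fold higher and 1 lower in either sex, with summed CPM of 4451 and 4134 in normal and trisomic females, and 3134 and 4733 in normal and trisomic males. The digestive amylase gene Amy-p was highest in change (2.14 and 3.15). Of 5 fat body markers 1 was higher (Lsp1beta) and 1 lower (Lsp2) in either sex, with sums of 60982 and 67009 CPM in females and 46354 and 50476 CPM in males. The Malpighian tubule gene Uro was lower in trisomic females (-0.65) and higher in trisomic males (0.67), and Irk3 had changes of -0.10 and 0.28. All 3 haemocyte markers found were higher in both sexes, with sums of 136 and 334 CPM in females and 107 and 283 CPM in males. All 5 salivary glue genes, which are expressed late in the third instar, were lower, with sums of 15730 and 4365 CPM in females and 14657 and 3313 CPM in males.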

How the data were processed

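Total RNA of larvae was sequenced from TruSeq libraries, per the labels' protocols. TopHat, HTSeq and the build dm3 are named, without versions or roles, per the submitters' processing notes. Annotation and strandedness, not given in the sources used here, could alter these values. Deposited values are CPM that the authors averaged within each group, per the file headers, and each column sums to 1000000 over both tables. No source explains how the repeated low value of each column arose. The depth of the libraries is unknown, and no interval was computed.

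A gene with several transcript models was given their mean. Changes used a pseudocount of 1 CPM, and the main count kept genes with a mean of at least 10 CPM, beside the count over all members. The 21 members were matched by name to an Ensembl annotation of release 6, used for order, strand, overlap and exon length alone, and 14 further genes by RefSeq locus tag. All members were named, with the fixed pathway and marker lists. The members, lists and rules were chosen with earlier results of these data known. Of genes outside the family, those described singly were chosen after their values were seen. With group means no test, replicate comparison or error could be had. The steps were tested on simulated data with known changes and no noise, for genes with a mean of at least 10 CPM. That run did not cover the sparse members or the repeated values. Python 3.11.15, numpy 2.4.6, pandas 2.3.3 and matplotlib 3.10.9 were used.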

Additional observations from a re-analysis of the deposited data

Results flagged for a closer look

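In 4 of the 21 members the female and the male change with trisomy went in opposite directions, and these differences between the sexes were not tested. The share of all genes with opposite changes was not computed, so this count cannot be read as a trait of the family. Male less female change was 0.53 for GstE10, -0.38 for GstS1, 0.17 for GstD5 and -0.056 for GstE1. Each of these genes differed by less than 1.5-fold between karyotypes in both sexes, and GstD5 lies below the repeated value of its column in 3 of the 4 groups.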

How the results depend on the processing

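Using the highest or the sum of transcript models, or a pseudocount of 0.5 CPM, kept every count and family median of members above the minimum within 1.5 times, or within 0.1 on the log2 scale. Dropping the minimum mean of 10 CPM took the count of higher members from 0 to 7 in females and from 0 to 10 in males, the family median from -0.25 to 0.35 and from -0.17 to 0.48, and the count of members higher in trisomic males than females from 1 to 2. With changes centred on the autosomal arms other than 2L, the family median was -0.050 in females and 0.14 in males, and the 1 lower member, GstD9, was no longer counted in either sex, so that 0 were lower, with or without the minimum (-0.54 and -0.45). A pseudocount of 5 CPM gave 4 higher and 0 lower of all members in females. With a threshold of 2-fold 4 members were higher in females and 6 in males, 0 were lower in either sex, and 0 were higher in trisomic males than females among members above the minimum. For a pseudocount of 5 CPM and a threshold of 2-fold the shares of all genes were not computed. The settings on all 21 members together were chosen after seeing the data. No single-gene change of at least 1.5-fold changed sign under these settings. No paired analysis was possible because the columns are group means, and for the same reason leaving out replicates was not run. Depth is unknown, so the repeated values of the columns, up to 2.81 CPM, limit what can be read of the 4 members that lie under 2.81 CPM in every group.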
